A study of Mus musculus with 2 samples.

Results

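The 10 genes described here encode ETS transcription factors, and the measurement is where the co-activator EP300 was bound around them in whole stomach of newborn mice (Mus musculus, strain B6NCrl, age 0 days after birth). The genes were taken by name: Ehf and Elf3, which are known from epithelia, and Elf1, Elf2, Ets1, Ets2, Gabpa, Elk3, Etv6 and Fli1, grouped here as widely expressed. They are 10 of the 21911 protein-coding genes of GENCODE M21, and all 10 were found in that annotation. The series holds 2 chromatin immunoprecipitation libraries of the same group, with an EP300 antibody and no genetic change or treatment given in the labels. The labels number them as biological replicates 1 and 2 but give both the same biosample and the same donor, so how far they differ may be technical only. Sex was not recorded, and there is no second tissue, stage or genotype to set against this one. The deposited peak lists hold the optimal set and the conservative set of the irreproducible discovery rate (IDR) procedure, which keeps peaks that rank alike in the lists it compares. There are also longer lists for the pooled reads and for each library. A peak of the optimal set need not rank alike in the 2 libraries: an Etv6 peak ranked 193366 in replicate 1 and 1918 in replicate 2. The signal of a peak is the value that the authors' peak caller gave it; the optimal, conservative and pooled lists share a scale, and each library's list has another. The lists analysed hold no read counts, so depth is unknown.

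EP300 is a histone acetyltransferase recruited by transcription factors, and its binding away from promoters is widely used to map enhancers. ETS factors share a DNA-binding domain that contacts a GGAA core. Ehf and Elf3 belong to the epithelium-specific branch of the family and act in differentiation of glandular and squamous epithelia. Elf1 and Elf2 are activators of the ELF branch, Ets1 and Ets2 are the founding members and respond to RAS signalling, and Gabpa is the DNA-binding subunit of GA-binding protein. Elk3 is a ternary complex factor that works with SRF, Etv6 is a repressor, and Fli1 is best known from blood and endothelium. The word "widely expressed" thus names the grouping and is not a measurement, since these data hold no RNA.

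EP300 summits lay in or near 6 of the 10 ETS genes, and Ets2 held the most and the strongest when 100 kb around each start was counted. A summit was counted when it lay in the gene body or within 100 kb of the start of the gene record. By this rule Ehf had 2 summits and Elf3 had 0. Among the widely expressed genes Ets2 had 7, Elf1 4, Elf2 3, Etv6 3 and Elk3 1, while Ets1, Gabpa and Fli1 had 0. Of all protein-coding genes, 10926 had at least 1 summit by the same rule (49.9%), so the 6 of 10 stand close to the share over all genes. Ehf and Elf3 together held 2 summits at 1 of 2 genes, and the others held 18 at 5 of 8. With 10 kb in place of 100 kb, Elf1 had 4, Etv6 3, Elf2 2 and Ets2 1, so the order of the genes depended on this distance. The 20 summits fell into 18 separate regions, because a pair at Elf1 and a pair at Elf2 overlapped. In whole tissue, EP300 bound in fewer cells and less EP300 bound per cell cannot be told apart.

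**Figure D1:**
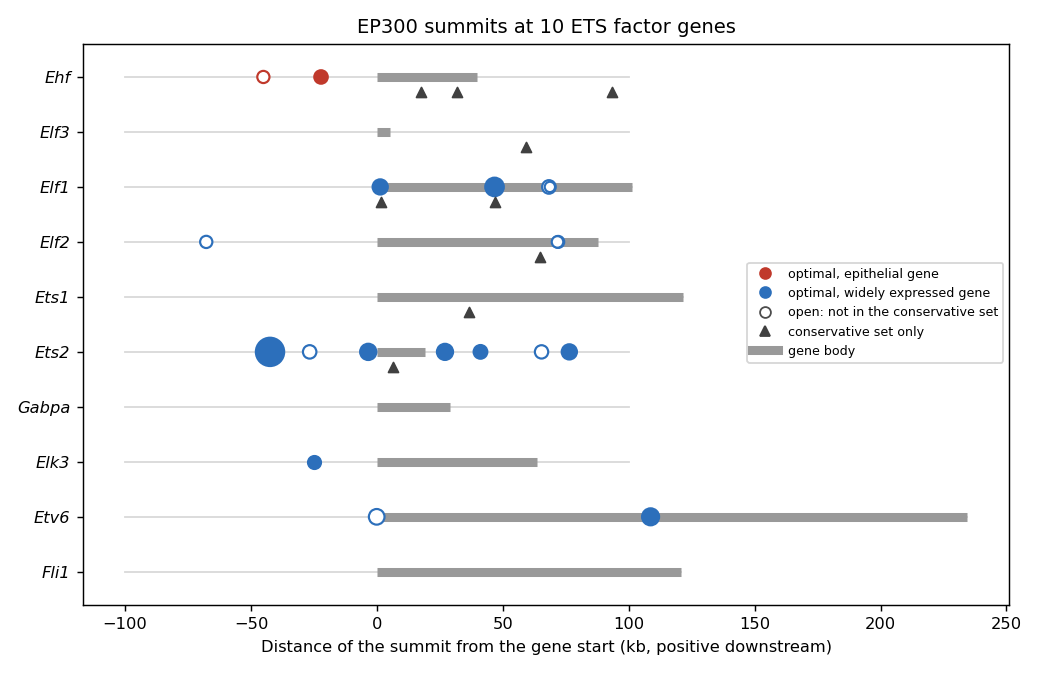
Position of each EP300 summit relative to the start of its ETS gene (kilobases along the gene's own direction, positive downstream). Circles are optimal peaks with area growing with signal, filled where the conservative set holds the same peak, triangles are peaks of the conservative set alone, thick bars are gene bodies and thin lines the counted windows; the 146.2 peak upstream of Ets2 is the largest circle, and the circles near 0 at Etv6 are 2 overlaid summits.

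The sequences below show the summits that the account turns on: both summits of Ehf, the strongest summit of the 10 genes, and summits at Ets2, Elk3 and Etv6 that hold letters of an AP-1, TEAD, CArG or ETS site. Each is given 5' to 3' on the plus strand of mm10, read from RefSeq's copy of that assembly, with at least 50 bases on either side of the summit. Capitals mark matches on either strand to GGAAG, the GGAA core followed by G, read as CTTCC on the other strand. They also mark TGANTCA (AP-1), CATTCC (TEAD) and the CArG box of SRF. GGAA without that G was not marked. A match is a description of letters, not evidence of a bound factor.
Ehf, 22200 bp upstream, chr2:103325428-103325528: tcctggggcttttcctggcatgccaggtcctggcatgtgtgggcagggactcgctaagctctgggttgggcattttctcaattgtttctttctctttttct
Ehf, 45094 bp upstream, chr2:103348322-103348422: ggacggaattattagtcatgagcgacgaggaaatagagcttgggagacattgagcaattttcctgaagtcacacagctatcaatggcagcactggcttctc
Ets2, 42456 bp upstream, chr16:95659569-95659669: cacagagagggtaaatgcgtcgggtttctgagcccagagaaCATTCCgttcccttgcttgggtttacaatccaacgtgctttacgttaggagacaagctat
Ets2, 3444 bp upstream, chr16:95698536-95698681: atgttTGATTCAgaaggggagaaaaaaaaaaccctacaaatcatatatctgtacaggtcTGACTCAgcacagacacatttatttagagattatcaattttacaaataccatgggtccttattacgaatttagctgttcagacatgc
Ets2, 27028 bp downstream, chr16:95729053-95729153: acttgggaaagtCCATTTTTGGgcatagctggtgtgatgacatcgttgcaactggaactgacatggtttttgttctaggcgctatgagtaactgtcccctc
Ets2, 76401 bp downstream, chr16:95778407-95778526: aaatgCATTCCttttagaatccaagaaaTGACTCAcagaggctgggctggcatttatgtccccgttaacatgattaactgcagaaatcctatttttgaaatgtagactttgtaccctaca
Elk3, 25056 bp upstream, chr10:93336120-93336244: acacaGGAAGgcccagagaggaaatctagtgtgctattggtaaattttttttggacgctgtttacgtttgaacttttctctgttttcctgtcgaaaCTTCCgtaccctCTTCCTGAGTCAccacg
Etv6, 108672 bp downstream, chr6:134144313-134144422: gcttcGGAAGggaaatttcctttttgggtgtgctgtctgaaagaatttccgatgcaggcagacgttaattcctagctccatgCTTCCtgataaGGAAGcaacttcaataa

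In these stretches neither Ehf summit holds any of the 4 kinds of match. Both do hold the shorter GGAA on either strand, which was not marked or counted. The strongest Ets2 summit holds 1 TEAD match, and the summit nearest to the Ets2 start holds 2 AP-1 matches, TGATTCA at 87 bp and TGACTCA at 33 bp from the summit. At Elk3 the AP-1 match TGAGTCA lies 45 bp from the summit and directly adjoins a CTTCC, so both appear as a single run of capitals. The Etv6 summit holds 3 matches to GGAAG.

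Ehf, an activator of epithelial genes, had its 2 optimal summits upstream of the start and none in its body (GENCODE M21, chromosome 2, 103263433 to 103303278, minus strand). The nearer peak (103325198 to 103325757, intergenic, 22200 bp upstream) had a signal of 27.2 in the optimal set, with 13.7 in replicate 1 and 17.0 in replicate 2. The farther peak (103348092 to 103348651, 45094 bp upstream, inside the lincRNA gene A930006I01Rik) had 20.98 in the optimal set, with 16.4 in replicate 1 and 8.13 in replicate 2. The order of the 2 peaks thus differed between the libraries: the nearer was the stronger in replicate 2 and the weaker in replicate 1. Both peaks were nearest to the Ehf start among coding starts, and both also lay within 100 kb of the start of Elf5, its neighbour and another epithelial ETS gene. The conservative set held the nearer peak only, but added 3 more at Ehf that overlapped no optimal peak. These lay in introns 17519 bp (signal 27.6) and 31605 bp (22.5) downstream of the start, and 93460 bp downstream within the lincRNA gene Gm13869 (34.0). The last of them was the strongest pooled peak in the Ehf window, at rank 3094 of the pooled list, with 16.6 in replicate 1 and 16.1 in replicate 2, and it was not in the optimal set.

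Elf3, which acts in differentiation of intestinal and other epithelia, had no optimal summit (chromosome 1, 135253575 to 135258568, minus strand). The nearest lay just outside the window, 100732 bp from the start, with a signal of 41.3, and was closest to Shisa4. The conservative set gave 1 peak, 59236 bp downstream of the start (135199052 to 135199611, intergenic), with a signal of 20.6, of which replicate 1 had 15.8 and replicate 2 had 12.1; its nearest coding start was that of Gpr37l1. At the Elf3 start itself the pooled list held a peak 84 bp upstream with a signal of 18.9, at rank 14466, and 7.40 in replicate 1 against 13.2 in replicate 2. The strongest pooled peak of the Elf3 window, 7657 bp downstream, had 21.8, with no summit in replicate 1 and 14.4 in replicate 2. Both peaks were below the 24.2 reached by the pooled peak at rank 7733, the number of optimal peaks on named chromosomes. That value is not a floor of the optimal set, whose lowest signal was 7.68 and which held an Ehf peak of 20.98.

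Elf1, an ELF-branch activator, had 4 optimal summits, all in introns of the gene (chromosome 14, 79481194 to 79582494, plus strand). Its strongest peak (79527619 to 79528178, 46705 bp downstream of the gene start and 12213 bp from the nearest Elf1 transcript start) had a signal of 58.4, with 24.3 in replicate 1 and 30.9 in replicate 2. That peak ranked 657 among the optimal peaks. A second (79482215 to 79482774, 1301 bp downstream) had 36.8, with 14.1 in replicate 1 and 22.1 in replicate 2, and was nearer to the start of Wbp4, 975 bp away. The other 2 overlapped each other 68298 and 68684 bp downstream, with signals of 27.9 and 12.9. Of this pair the first had 11.6 in replicate 1 and 7.19 in replicate 2, and the other had no summit in the list of replicate 1 and 10.4 in replicate 2. The 2 peaks outside the overlapping pair were in the conservative set. At the Elf1 start the pooled list held a peak 130 bp upstream with a signal of 23.7, not in the optimal set, with 22.6 in replicate 1 and 8.30 in replicate 2.

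Elf2, the close relative of Elf1, had 3 optimal summits, none of them in the conservative set (chromosome 3, 51252720 to 51340663, minus strand). An overlapping pair lay in an intron 71993 and 71712 bp downstream of the start, with signals of 20.1 and 17.9. The first of the pair was matched by no summit in replicate 1 and by 9.86 in replicate 2, the other by 5.10 in replicate 1 and 5.14 in replicate 2, near the lowest listed signals of 4.74 and 4.54. The third peak (signal 21.2, with 18.7 in replicate 1 and 6.48 in replicate 2) lay 67782 bp upstream in an intron of Ndufc1 and 519 bp from a start of that gene. A stronger pooled peak in an intron of Elf2, 1241 bp from an internal Elf2 start (51275847 to 51276406, signal 32.2, with 17.9 in replicate 1 and 14.8 in replicate 2), was itself in neither IDR set, though the conservative set held a peak of signal 16.3 that overlapped it.

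Ets2, a RAS-responsive activator, had 7 optimal summits, all outside protein-coding genes and all nearest to its own start (chromosome 16, 95702075 to 95721051, plus strand). As many or more were counted at 778 of the 21911 protein-coding genes (3.55%). The strongest (95659507 to 95659765, intergenic, 42456 bp upstream) had a signal of 146.2, with 68.1 in replicate 1 and 70.4 in replicate 2. It ranked 109 in the optimal set, 124 in replicate 1 and 118 in replicate 2, and at 259 bp it was the only member peak narrower than the full width of 560 bp. It also lay within 100 kb of the start of Erg, another ETS gene, as did the peak 26710 bp upstream of Ets2.

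The next Ets2 peaks were of similar height. The peak 3444 bp upstream (95698351 to 95698910) had 43.2, with 16.7 in replicate 1 and 25.1 in replicate 2. The peak 27028 bp downstream (95728823 to 95729382) had 42.4, with 18.7 in replicate 1 and 24.2 in replicate 2, and holds a CArG box match. Inside the lincRNA gene 1600002D24Rik lay a peak 76401 bp downstream (95778196 to 95778755) with 36.9, of which replicate 1 had 16.3 and replicate 2 had 20.98. The remaining 3, at 41119 bp downstream, 26710 bp upstream and 65369 bp downstream, had 28.6, 27.2 and 26.6. The last of these had 5.15 in replicate 1 and 17.9 in replicate 2. Of the 7 peaks, 5 were in the conservative set, and all 7 were higher in replicate 2 than in replicate 1. The conservative set added a peak in an Ets2 intron, 6321 bp downstream (95708116 to 95708675, signal 14.8), that overlapped no optimal peak. It had no summit in replicate 1 and 9.62 in replicate 2, and held the ETS letters CAGGAAGT within 100 bp of its summit. At the Ets2 start the pooled list held a peak 118 bp upstream with a signal of 21.9 (7.31 in replicate 1 and 6.68 in replicate 2), which was not in the optimal set.

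Etv6, a repressor, was the only member of the 10 with optimal summits within 1 kb of its start (chromosome 6, 134035700 to 134270158, plus strand). Over all protein-coding genes 2214 had such a summit (10.1%). The peak 92 bp upstream (134035328 to 134035887) had a signal of 39.4, with 5.60 in replicate 1 at rank 193366 and 21.6 in replicate 2 at rank 1918. The peak 886 bp upstream (134034534 to 134035093) had 12.2, with 13.2 in replicate 1 and 4.74 in replicate 2. The libraries thus differed in opposite directions at these neighbouring peaks. The lower value at each was near the lowest listed signal, 4.74 in replicate 1 and 4.54 in replicate 2. The conservative set held neither peak. It did hold the strongest Etv6 peak, in an intron 108672 bp downstream (134144092 to 134144651), with 48.0 in the optimal set, 16.4 in replicate 1 and 29.1 in replicate 2.

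Elk3, the SRF partner, had a single optimal summit 25056 bp upstream of its start (chromosome 10, 93335911 to 93336470), inside the lincRNA gene Gm17745. Its signal was 24.9, with 15.6 in replicate 1 and 13.2 in replicate 2, and the conservative set held it too. A further optimal summit lay just outside the window at 105790 bp, nearest to Lta4h. At the Elk3 start the pooled list held a peak 258 bp downstream with a signal of 22.1 (13.5 in replicate 1 and 8.72 in replicate 2), not in the optimal set.

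Ets1, Gabpa and Fli1 had no optimal summit. The strongest pooled peak of each ranked beyond 7733, the number of optimal peaks on named chromosomes. For Ets1, known from lymphocytes and endothelium, this was an intronic peak 36405 bp downstream of the start (chromosome 9, 32672346 to 32672905). It had a pooled signal of 22.8 at rank 8937, 10.5 in replicate 1 and 16.1 in replicate 2, and was in the conservative set. That signal was above each optimal peak at Elf2, the strongest of which had 21.2. Fli1, the neighbour of Ets1 on the same chromosome, had 18.1 at rank 16246, 70196 bp upstream, with 10.9 in replicate 1 and 7.47 in replicate 2. Within 1 kb of its coding starts Fli1 had no peak in the pooled list or in the list of either library. The record of Ets1 begins 59801 bp from its nearest coding start, and within 1 kb of the coding starts the pooled list held 12.4 at most, at rank 57228. The strongest peaks there in the libraries' own lists, at other positions, had 7.71 in replicate 1 and 5.03 in replicate 2. Gabpa, which drives housekeeping and mitochondrial genes, had 16.1 at rank 22770, 6790 bp downstream of its start and nearest to its neighbour Atp5j, matched by no summit in replicate 1 and by 9.50 in replicate 2. The nearest optimal summits lay 392904 bp from the start of Ets1, 299544 bp from that of Fli1 and 921461 bp from that of Gabpa. The lists hold only peaks above their lowest signal, so a missing peak gives no upper limit.

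**Figure D2:**
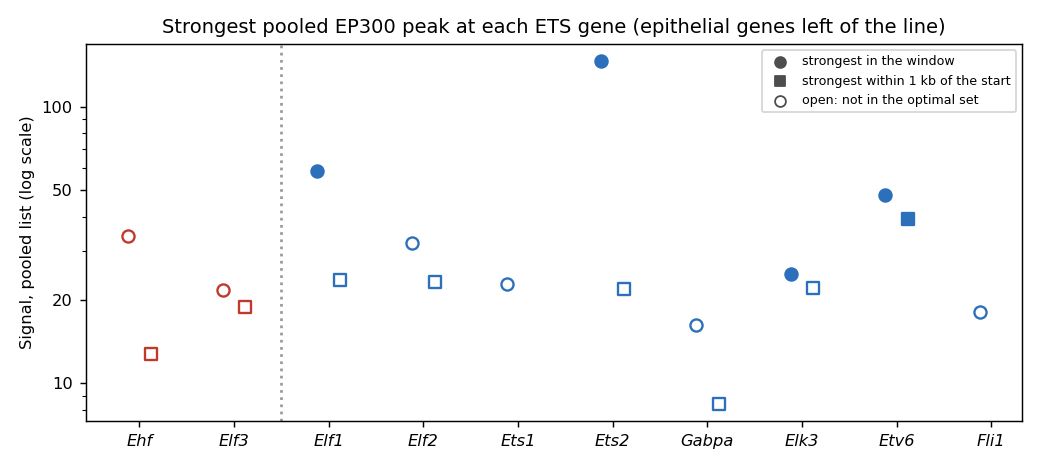
Signal of the strongest peak of the pooled list at each ETS gene (log scale), in the whole counted window (circles) and within 1 kb of the start of the gene record (squares, absent where the list holds none); open symbols are not in the optimal set. Epithelial genes are red and widely expressed genes blue: Ets2 reaches 146.2 and Gabpa 16.1, and only Etv6 has a filled square.

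In the optimal set the epithelial genes held fewer peaks per megabase than the widely expressed genes, and their signals lay within the range of the others. The order of the densities turned round in the conservative set and in replicate 1. The 2 peaks at Ehf had signals of 20.98 and 27.2, a median of 24.1. The 18 peaks at the widely expressed genes ran from 12.2 to 146.2, with a median of 28.2. Over all optimal peaks on named chromosomes the median was 30.2. Per megabase of counted window there were 5.0 summits at the epithelial genes and 10.8 at the widely expressed genes, against 3.95 over the windows of all protein-coding genes. The ratio rested on few genes: Ehf alone had 10 summits per megabase, Elf1 19.9 and Ets2 35.0. With 2 genes against 8, and genes that are not replicates of a condition, the contrast was not tested.

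Per megabase the conservative set had 12.5 summits at the epithelial genes and 8.38 at the widely expressed genes. In the strongest 7733 peaks of replicate 1 the epithelial genes had 10 and the widely expressed genes 8.97, and in those of replicate 2 the epithelial genes had 12.5 and the widely expressed genes 13.8. The conservative set held 5 summits at both epithelial genes and 14 at 6 of the 8 widely expressed genes, so that 8 of the 10 had at least 1, against 48.2% of all protein-coding genes. Of the 5 at Ehf and Elf3, 4 overlapped no optimal peak, and of the 14 at the others 3 overlapped none. Genome-wide the conservative set is not a subset of the optimal set: 7 of its 19 member peaks overlapped no optimal peak (36.8%), against 1620 of all 6972 on named chromosomes (23.2%). In the strongest 7733 peaks of replicate 1 alone, Ehf had 2 and Elf3 2; in those of replicate 2 alone, Ehf had 4 and Elf3 1. Ets2 had 5 in replicate 1 and 11 in replicate 2, Elf2 had 5 and 1 in the same order, and Ets1 had 0 and 2. Gabpa and Fli1 had 0 in each of these sets, and Elk3 had 1 in each.

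**Figure D3:**
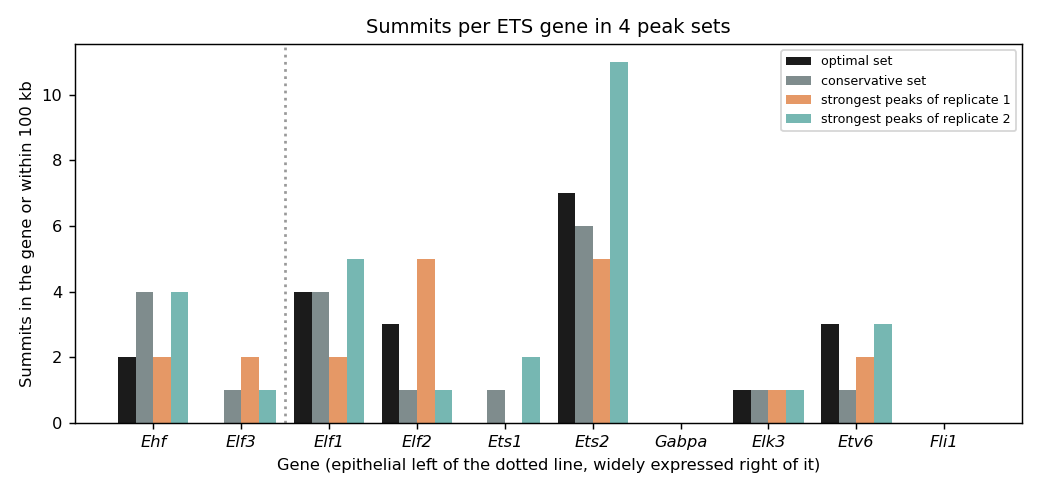
Number of EP300 summits per ETS gene, in its body or within 100 kb of its start, in the optimal set, the conservative set and the 7733 strongest peaks of each replicate list. Ets2 has the most summits in all 4 sets except that Elf2 ties with it at 5 in replicate 1, and Gabpa and Fli1 have none in any.

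Among the strongest 7733 peaks of the pooled list, 25 fell to the 10 genes, and 14 of them were in the optimal set (56.0%), against 5681 in the whole genome (73.5%). Another 3 were in the conservative set alone, and 8 in neither (32.0%, against 15.3% in the whole genome). Of the 4 such peaks at Ehf, the optimal set held 1 and the conservative set 3. Of the 4 in the Elf2 window, 3 of them within 1 kb of a start of Naa15, neither set held any. At Ets2 the optimal set lacked 2 of 9, both in introns of the gene: 1 had 21.1 in replicate 1 and 4.59 in replicate 2, the other 6.98 and 14.2 in the same order.

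Shares with support in the other lists differed by few peaks between the 20 member peaks and all optimal peaks. The conservative set held 10 of the 20 (50%), against 61.3% of all 7733 and 59.3% of those over 10 kb from a coding start. In replicate 1, 9 of 20 were matched by a peak among the 7733 strongest of that library (45%, against 61.5% of all optimal peaks and 56.8% of the distal ones), and in replicate 2, 11 of 20 (55.0%, against 66.0% of all and 64.3% of the distal ones). In both libraries at once this held for 6, and for 6 others in neither. Where both libraries had a summit inside the peak, replicate 2 was higher at 13 of 18 member peaks, against 48.9% of all such optimal peaks, with a median ratio of replicate 2 to replicate 1 of 1.28 at the members and 0.988 over all. All 7 Ets2 peaks were among these 13, so the count leaned on 1 gene, whose peaks are not replicates. At Ehf replicate 2 was higher at 1 peak and lower at the other. Scales differ between the lists, so the ratio of 1 library to the other is read only against that over all peaks, and no test was made.

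**Figure D4:**
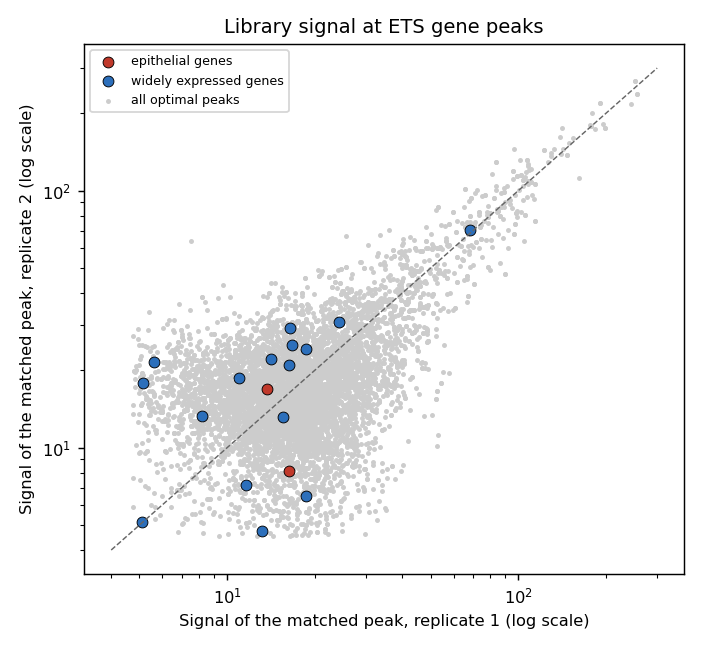
Signal of the library peak matched to each optimal peak, replicate 1 on the x axis and replicate 2 on the y axis (both log scales, each on the scale of its own list), with peaks of epithelial ETS genes in red, of widely expressed ETS genes in blue and all optimal peaks in grey; the dashed line marks equal values. The Ets2 peak at 68.1 and 70.4 is the highest of the ETS gene peaks, with other optimal peaks above it, and the rest lie within the main cloud or near its lower edges.

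Most of the 20 summits lay far from starts and belonged to their ETS gene by distance. For 18 of 20 the nearest coding start was that of the ETS gene, and the exceptions were nearest to Wbp4 and Ndufc1. At least 1 summit nearest to their own start was counted at 6 of the 10 genes, against 4024 of the 21911 protein-coding genes (18.4%). Among genes with any summit these were 6 of 6, against 4024 of 10926 (36.8%). Neighbouring genes share windows, so the share over all genes is only a background. Of the 20 summits, 13 lay over 10 kb from any coding start (65.0%, against 44.7% of all optimal summits), 3 between 1 and 10 kb and 4 within 1 kb. By feature 8 were intronic, 12 lay outside protein-coding genes and 0 in exons. No share over all optimal summits stands beside the counts by feature or those below 10 kb. They describe these summits only.

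The longer ETS letters searched were not seen at these summits, and other longer forms of the site were not searched. None of the 20 held CCGGAAGT or CAGGAAGT within 100 bp on either strand. Either form was at 381 of all 7733 optimal summits (4.93%) and at 3.21% of those over 10 kb from a coding start. A count of 0 of 20 allows a share of up to 15.0% if the summits are taken as independent. They form 18 regions at 6 genes, so the true limit may be wider. The shorter GGAAG, which both longer forms contain, was at 9 of 20 (45%), against 56.8% of all and 52.5% of the distal summits. AP-1 matches (TGANTCA) were at 4 of 20, 3 at Ets2 and 1 at Elk3 (20%, against 12.7% of all and 18.9% of the distal summits). TEAD matches (CATTCC) were at 2, both at Ets2 (10%, against 14.2% of all and 16.7% of the distal summits). CArG boxes were at 2, at Elf2 and Ets2 (10%, against 1.77% of all and 2.37% of the distal summits). The letters AACCGGTT and AACNGGTT of grainyhead factors, GGGCGGG and GGGTGGG of KLF and SP factors and TGACGTCA of CREB factors were at none of the 20. Either KLF and SP form was at 21.1% of all optimal summits and 12.1% of the distal ones. In the same order AACNGGTT was at 4.85% and 6.48%, AACCGGTT at 0.466% and 0.607%, and TGACGTCA at 0.815% and 0.549%. Neither Ehf summit held any of the motifs searched.

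In RefSeq promoters of the GRCm38.p6 build, taken from 250 bases before to 50 after a start, 7 of the 10 genes were matched, with 9 promoters. CCGGAAGT was in none of the 9, against 3.89% of 32851 promoters, and CAGGAAGT in 1, at an internal start of Elf2, against 3.33%. The shorter GGAAG was in 7 of 9, against 71.4% of all. The 2 promoters without it were those of Elf3 and Ets2, while that of Gabpa held 3 copies.

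Most summits counted for the other ETS genes lay nearer to the start of another gene. Of 16 further family members annotated as protein-coding, 11 had an optimal summit (68.8%, against 49.9% of all genes), led by Erf with 7, Elk4 with 6, Elf5 with 5 and Etv2 with 4. Of the 5 at Elf5, 2 are the Ehf summits, and both at Erg are Ets2 summits; without summits shared with the 10 genes, 10 of the 16 had any. A summit nearest to their own start was found at 3 of the 16, Elk4, Etv3 and Etv5 (18.8%, against 18.4% of all genes). Erf, a repressor, had its strongest peak (74.7, with 43.1 in replicate 1 and 28.01 in replicate 2) 275 bp from a start of Cic. Elk4, the ternary complex factor nearest to Elk3 in kind, had 3 summits within 1 kb of its own start. The strongest peak counted for Elf5 lay 113 bp from the start of Cat (41.9), and that for Etv2 lay 396 bp from a start of Kmt2b (43.4). Etv3l is a pseudogene in this annotation and was not counted.

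Among 10 partners and regulators of ETS factors, 6 had a summit (60%, against 49.9% of all genes). The same 6 of the 10 had 1 or more within 1 kb of their start (60%, against 10.1% of all genes): Gabpb1, Gabpb2, Srf, Ep300, Fos and Jun. The list was chosen with earlier results of these data known, so this share is a description and was not tested. Jun had 10 summits, Fos 9, Gabpb2 4 and Ep300 4. Gabpb1 and Gabpb2 encode the partner subunits of Gabpa, which itself had 0. The strongest Gabpb2 peak, 150 bp from its start, had 44.6, with 23.1 in replicate 1 and 25.9 in replicate 2. Mapk3, Crebbp, Runx1 and Cbfb had 0.

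Markers of the tissue were also checked by the same rule, by which 49.9% of all genes have a summit. Summits were counted at 8 of 12 genes of gastric epithelium, with 9 at Cdh1 and 0 at Epcam, Cldn18, Muc5ac and Atp4b, and at 6 of 7 genes of gastric mesenchyme and smooth muscle, with 0 at Des. They were at 5 of 6 genes of squamous forestomach (0 at Krt5), 3 of 6 of endothelium (0 at Cdh5, Kdr and Tek) and 3 of 6 of blood (0 at Ptprc, Lyz2 and Hbb-bs). Many of these summits lay closer to a neighbouring gene's start. A summit nearest to the marker's own start was found at 2 genes of gastric epithelium (Cdh1 and Krt8), 5 of mesenchyme and smooth muscle, 1 of squamous forestomach (Trp63), and 0 of endothelium and of blood. Neighbouring markers also share peaks, such as Tff1 with Tff2. The part of each cell type in the values of the ETS genes was not tested.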

How the data were processed

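Chromatin immunoprecipitation sequencing for EP300 was done on 2 libraries, which form 1 group. The authors deposited narrowPeak lists on mm10 (optimal, conservative, pooled, and 1 for each library), per the labels and readme texts. Aligner and peak caller: not given in the sources used here. Of the units, the deposited signal is the peak caller's value in column 7, the deposited score of the IDR sets is a scaled value of up to 1000, and the other deposited unit is the summit offset in bp. A summit is column 2 plus column 10, printed 1-based. Of 7737 optimal peaks, 4 off the named chromosomes were dropped. Genes came from GENCODE M21, by symbol; 1 gene of the partner list is not reported here. A library's value is the strongest peak of its list with a summit inside the optimal peak. Starts are those of gene records; nearest starts are those of coding transcripts. Sequence came from the matching GRCm38.p6 assembly. Counting and motif search (Python 3.11.15, pandas 2.3.3, pysam 0.24.0) were tested on simulated data. With 1 group, nothing was tested; values are descriptions. Peaks named per gene were its up to 4 strongest; weaker ones, promoter peaks of the pooled list and peaks outside the optimal set were named after their values were seen. Members and lists were chosen with earlier results of these data known. Alternatives covered the peak set, each replicate alone, distances, starts, sharing, merging and motif letters. Intervals and limits cover counting error only.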

Additional observations from a re-analysis of the deposited data

How the results depend on the processing

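A count or value was taken as kept where it stayed within 1.5-fold. The total of 20 summits at the 10 genes fell to 8 in the stronger part of the optimal set and to 10 in the gene body or within 10 kb of the start, and the 6 genes with a summit fell to 3 in that stronger part. The 2 summits at Ehf and Elf3 became 5 in the conservative set, 4 in the strongest pooled peaks, 4 in replicate 1 alone, 5 in replicate 2 alone, and 0 in the stronger part and within 10 kb; the 18 at the widely expressed genes became 8 and 10 in these last settings. The difference in summits per megabase, epithelial minus widely expressed (-5.77), was 4.12 in the conservative set and 1.03 in replicate 1 alone, which reverses it, -2.56 in the strongest pooled peaks and -1.26 in replicate 2 alone; these alternatives were chosen after seeing the data. The median signal of member peaks (27.6) was 42.8 in the stronger part, 16.6 in replicate 1 alone and 17.4 in replicate 2 alone, and at the widely expressed genes 42.8, 16.6 and 18.0; the lists of single libraries have their own scales. The share of all genes with a summit was 20.1% within 10 kb and 18.4% with nearest starts only. The 11 further ETS genes became 6 within 50 kb, 3 within 10 kb and 3 with nearest starts only. The count of member summits with a longer ETS motif was 1 in the conservative set, 0 in replicate 2 alone and 1 in replicate 1 alone, and 9 with GGAAG alone. Of 100 counts per gene under these settings, 78 were kept and 22 moved. The kept counts include those of 0 that stayed 0, as at Gabpa and Fli1 in every setting. Settings that only take summits away cannot move a count of 0, so the 78 overstates how stable the counts were. The cause of the changes was not tested. No paired analysis was possible because there is 1 group. Depth is unknown, so limits by depth cannot be given.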
